A study of Homo sapiens with 9 samples.

Results

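MYC and PVT1 are neighbouring genes on human chromosome 8. This account describes open chromatin around both of them in MDA-MB-231 cells, an established line from a human triple-negative breast cancer. The members are the regions formed by merging, at 1 bp of overlap or more, every peak of the 9 deposited ATAC-seq peak lists between 126.5 and 129.5 Mb of GRCh38. They were 159 of 118719 merged regions in the genome. The choice used position alone and no measured level.

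ATAC-seq inserts adapters into accessible DNA with the Tn5 transposase, so that a peak marks a stretch of open chromatin. The line carried a control shRNA (shCtrl, 2 libraries), an shRNA against EZH2 (shEZH2, 2 libraries), against E2F1 (shE2F1, 2 libraries) or against SUZ12 (shSUZ12, 1 library), or was given DMSO (1 library, whose treatment label reads WT) or GSK126 (1 library), which blocks the methyltransferase activity of EZH2. The 7 shRNA libraries came from cells that took up lentivirus over 24 h and were then kept in 2 μg/ml puromycin for 72 h. The labels name no shRNA for the DMSO and GSK126 cells and no dose. EZH2 and SUZ12 are subunits of Polycomb repressive complex 2, and E2F1 is a transcription factor of the cell cycle; the design asks how loss of each bears on open chromatin. Each target has 1 shRNA label in a single line, and nothing states that replicates were separate cultures, so p-values measure only the spread between these libraries, which may be technical.

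MYC encodes a basic helix-loop-helix leucine zipper transcription factor that pairs with MAX and binds E-box sequences in the promoters of growth genes. PVT1 encodes a long noncoding RNA, begins shortly after MYC on the same strand, and is often gained together with MYC in tumours. The desert around the pair holds few protein-coding genes and many distal regulatory sites, several of them inside noncoding RNA genes such as PCAT1, CASC8, PRNCR1 and CCDC26.

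A peak's strength was read as the percentile of its fold enrichment (column 7 of each list) among all peaks of its own list, where 100 is the strongest peak. The lists held 58626 to 85812 peaks, and 93 to 124 of them, or 0.136% to 0.159% of a list, fell in the window. A library's window peaks had a median percentile of 49.7 to 58.5. They were somewhat wider than a list's peaks in general, with medians of 402.5 to 507 bp against 361 to 415 bp. The promoters of VIM, CD44, AXL and CAV1, which are active in mesenchymal breast cancer lines, had a peak in all 9 libraries, whereas GATA3, a luminal gene, had none in any and ESR1, PGR and FOXA1 had one in 7 or 8. The promoters of EZH2, E2F1 and SUZ12 had a peak in all 9 libraries, which is no measure of the knockdown, since shRNA acts on the transcript.

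**Figure D1:**
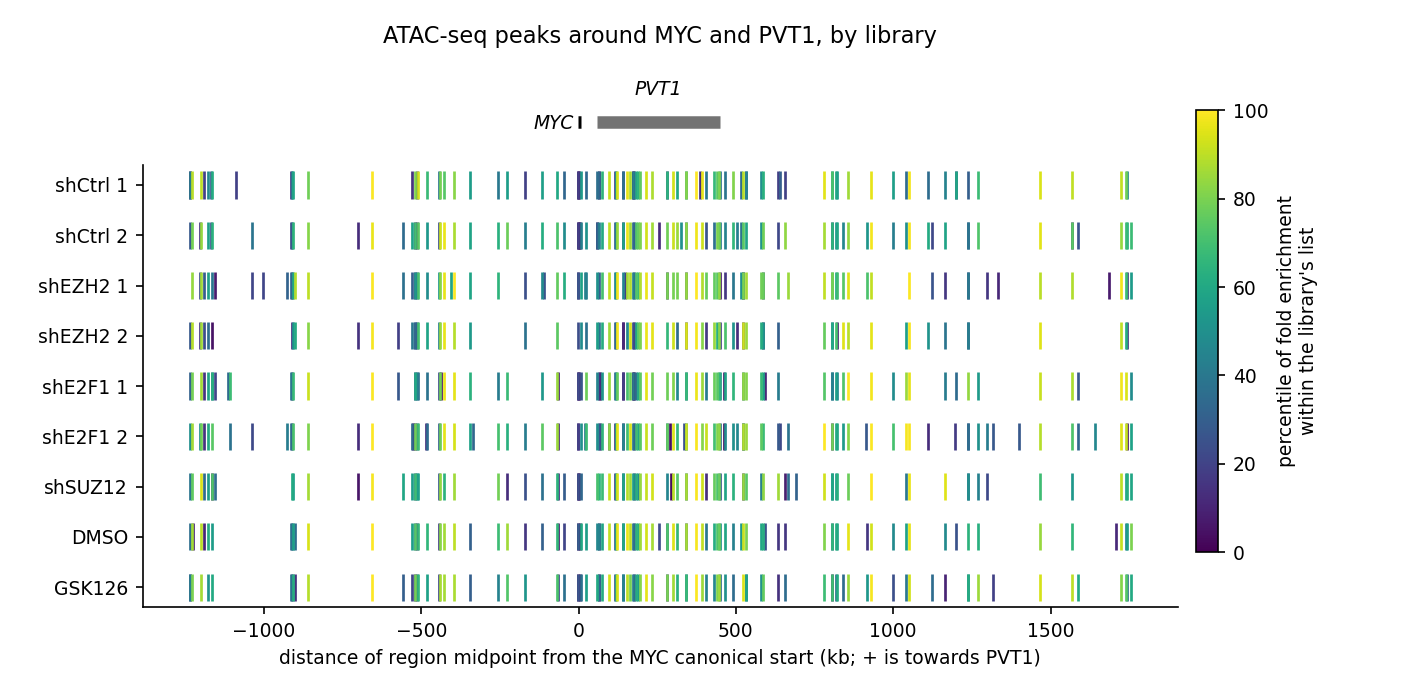
Every merged region with a peak, by library (rows) and by distance of its midpoint from the MYC canonical transcription start in kb (x axis); colour gives the percentile of fold enrichment of the library's strongest peak in the region, and the bars above mark the MYC and PVT1 genes. Ticks crowd over the PVT1 gene in all 9 rows, while the tick at MYC itself lies at a low percentile.

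Merged regions were densest over MYC and PVT1. The MYC gene with 1 kb before it, 8.52 kb in all, held 4 regions, but only 1 of them was found in all 9 libraries. The 394 kb of PVT1 held 44 regions, or 11.2 per 100 kb. The 1234 kb upstream of MYC held 52 regions (4.21 per 100 kb), the 50.6 kb between the genes held 3 (5.93 per 100 kb), and the 1313 kb downstream of PVT1 held 56 (4.27 per 100 kb). Regions shared by the 9 libraries were commoner over PVT1 than elsewhere in the window. There 29 of 44 regions (65.9%) had a peak in all 9 libraries, against 15 of 52 upstream of MYC (28.8%) and 19 of 56 downstream of PVT1 (33.9%). Over the whole window 65 of 159 regions (40.9%) were found in all 9 libraries and 30 in 1 library. The same share was 34.2% of the genome's regions and 31.8% of the other 4399 regions of the chromosome. These shares describe the lists and were not tested.

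The window's 65 regions found in all 9 libraries resembled such regions elsewhere in strength. The median of their median percentiles was 68.6, against 69.8 over the genome's 40606 such regions. A median percentile of 90 or more was reached by 11 of the 65 (16.9%), against 16% genome-wide, and one below 25 was found in 4 (6.15%), against 6.48%. Most stood away from annotated starts. Of the 38 genes with a canonical transcription start in the window (3 protein-coding, 17 lncRNA and 6 miRNA genes among them), 11 had a peak within 1 kb in all 9 libraries, 3 in some and 24 in none. The 24 include POU5F1B, a retrogene of the pluripotency factor gene POU5F1.

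The MYC promoter was open in all 9 libraries but ranked low by fold enrichment. The canonical MYC transcript (ENSG00000136997.22) starts at base 127736231, on the plus strand and 797 bp inside the annotated gene (127735434 to 127742951), and the promoter region spanned chr8:127735133-127736471, over exon 1. Its percentile was 17.8 and 18.4 in the shCtrl libraries. It was 26.9 and 23.6 with shEZH2. It was 23 and 9.15 with shE2F1. By fold enrichment both shEZH2 libraries thus lay above both shCtrl libraries, while the shE2F1 libraries lay on either side of them. The shSUZ12 library stood at 24.9, DMSO at 29.5 and GSK126 at 26.9, so that all 3 were also above both shCtrl libraries, the DMSO control included.

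The shEZH2 mean was 25.2 ± 2.27 (SD, n = 2) and the shCtrl mean 18.1 ± 0.447 (SD, n = 2). The difference of 7.13 percentile points had p = 0.333 in an exact two-sided permutation test, which is the smallest p that 2 against 2 libraries allow (0.444 after Benjamini-Hochberg adjustment over the 4 promoter comparisons). The shE2F1 mean was 16.1 ± 9.77 (SD, n = 2), 2.06 points below shCtrl (exact permutation p = 1), a difference smaller than the spread between the shE2F1 libraries. Without replicate 2 of shE2F1, the lone library was 4.85 points above shCtrl. In this test no comparison of 2 libraries with 2 can pass a threshold of 0.05.

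The low rank of the MYC promoter peak did not extend to its other columns. By −log10 p (column 8), the same peak lay between the 58.2nd and the 82.4th percentile. Fold enrichment and −log10 p together give back the number of tags at a summit and the local background mean against which the authors' caller set it, and both columns of every peak were matched with an error of at most 0.00118 in −log10 p. The MYC promoter had 100 and 137 summit tags in the shCtrl libraries. It had 105 and 79 with shEZH2, and 68 and 81 with shE2F1. The shSUZ12, DMSO and GSK126 libraries held 153, 146 and 131 tags. These numbers placed the peak between the 84.4th and the 93.3rd percentile by tags. Ranked by tags, the shEZH2 mean was 1.99 points above shCtrl with overlap (exact permutation p = 0.667). By −log10 p it was 5.27 points above without overlap (exact permutation p = 0.333). Tags are not scaled for the depth of a library, which the lists do not give.

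The local background at the MYC promoter was among the highest of each list. It stood at 12.9 to 29.5 tags, or 8.63 to 14.7 times the library's genome-wide background, which put it between the 97.5th and the 98.8th percentile of backgrounds. The multiple was 11.8 and 13.9 in the shCtrl libraries, 10.2 and 9.97 with shEZH2, and 8.63 and 9.38 with shE2F1. The shEZH2 and shE2F1 multiples thus all lay below those of shCtrl. With shSUZ12, DMSO and GSK126 the multiple was 14, 13.8 and 14.7. The part of the background in the fold differences was not tested. Over the 12026 protein-coding promoters with a peak in all 9 libraries, the median multiple was 4.36, and 436 of them (3.63%) reached that of MYC. Fold enrichment divides tags by background, so a peak with many tags on a high background has a modest fold. The MYC fold was 3.82 to 5.87. Among all protein-coding promoters with a peak in the same list, MYC lay between the 3.47th and the 12.2nd percentile.

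**Figure D2:**
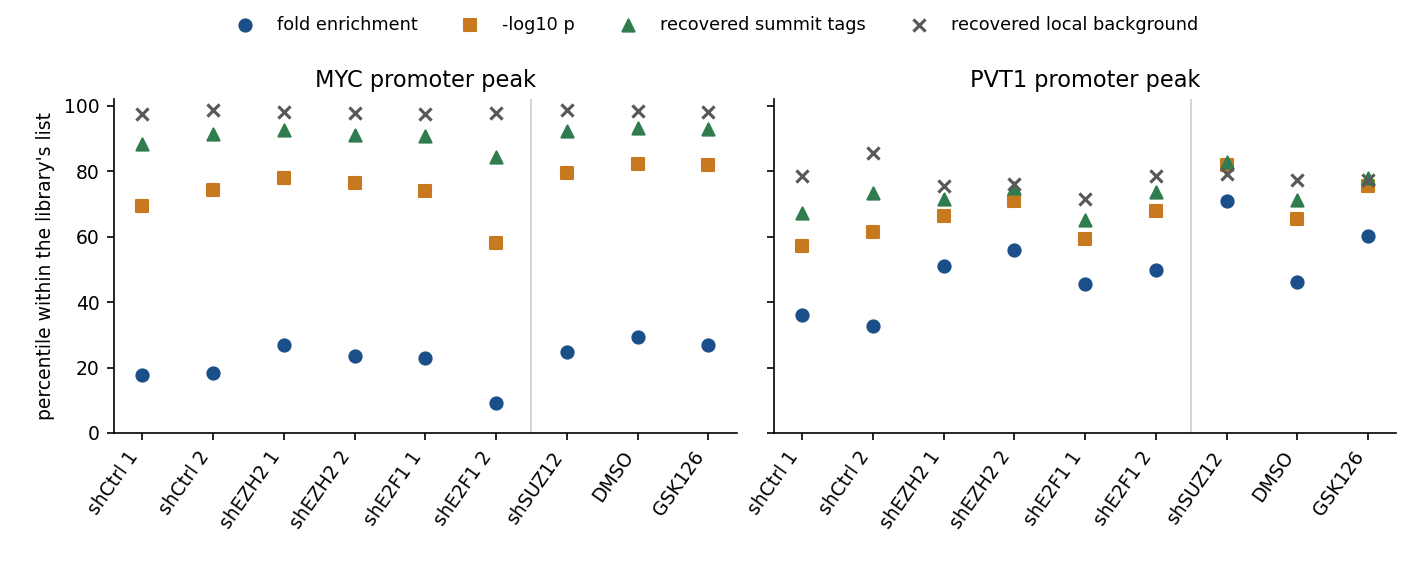
Percentile within its own list (y axis) of the strongest peak within 1 kb of the canonical MYC start (left) and PVT1 start (right) in each library (x axis), for 4 quantities: fold enrichment, −log10 p, recovered summit tags and recovered local background. At MYC the background points lie near 98 and the fold points between 9.15 and 29.5; at PVT1 the fold points lie between 32.8 and 70.9.

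The MYC promoter held a pair of summits about 0.9 kb apart, one beside the annotated 5′ end of the gene and one at the canonical start. The stronger summit lay 23 bp before the canonical start in shCtrl replicate 1 and 910 bp before it in shCtrl replicate 2. It lay within 5 bp of the start in both shEZH2 libraries and 921 and 920 bp before it in the shE2F1 libraries. With shSUZ12 and GSK126 it stood 16 and 65 bp before the start, and with DMSO 918 bp before it. The choice of summit thus differed between the replicates of shCtrl. In shCtrl replicate 1 and shEZH2 replicate 2 the caller split the region into a peak for each summit, and in shCtrl replicate 1 these had 96 and 100 tags.

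Inside the MYC gene, accessibility past the promoter was sparse in the lists. A region of intron 1 (chr8:127737500-127737868) had peaks in both shCtrl libraries, at the 0.897th and 0.022nd percentile, and in shSUZ12 at the 0.524th, and in no other library. A separate region just past it in the same intron (chr8:127737981-127738180) had a peak in shE2F1 replicate 1 alone, at the 0.291st percentile. A region over exon 3 (chr8:127741565-127742468) had a peak in shCtrl replicate 2, DMSO and GSK126, at percentiles of 1.78, 0.368 and 2.51. These weak peaks stood on median backgrounds of 10.7 to 15.6 times the genome-wide one. Just before MYC, the start of CASC11, an antisense lncRNA gene, had a region (chr8:127734013-127734343) with peaks in 8 libraries and a median percentile of 4.58. Just past the 3′ end of MYC, chr8:127742991-127743591 was found in all 9 libraries, with percentiles of 54.1 and 43.3 (shCtrl), 57.5 and 48.1 (shEZH2), 26.3 and 49.8 (shE2F1), 33.4 (shSUZ12), 60 (DMSO) and 36.4 (GSK126). The groups overlapped at this site, which ranked above the promoter in all 9 libraries.

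By fold enrichment, the PVT1 promoter ranked higher than that of MYC in all 9 libraries and was lowest in the shCtrl libraries. The canonical PVT1 transcript (ENSG00000249859.14) starts at base 127794541, 58.3 kb after MYC, and the promoter region spanned chr8:127793774-127795450 over exon 1. Its percentile was 36.2 and 32.8 in the shCtrl libraries. It was 51.1 and 55.9 with shEZH2, and 45.6 and 49.7 with shE2F1. The shSUZ12 library stood at 70.9, DMSO at 46.2 and GSK126 at 60.4. All 7 other libraries lay above both shCtrl libraries, again including DMSO.

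The shEZH2 mean of 53.5 ± 3.41 (SD, n = 2) was 19 points above the shCtrl mean of 34.5 ± 2.4 (SD, n = 2), and the shE2F1 mean of 47.7 ± 2.89 (SD, n = 2) was 13.2 points above it. Both differences exceeded the spread between replicates, and both had an exact two-sided permutation p of 0.333, the smallest possible (0.444 adjusted over the 4 comparisons). The knockdowns were set against the same shCtrl libraries, so the differences are not independent of each other. By recovered tags the groups overlapped. The shCtrl libraries held 53 and 70 summit tags, shEZH2 54 and 48, shE2F1 36 and 59, shSUZ12 99, DMSO 62 and GSK126 70. By −log10 p, the shEZH2 mean was 9.41 points above shCtrl without overlap (exact permutation p = 0.333), and the shE2F1 mean was 4.3 points above it with overlap (exact permutation p = 0.667). Ranked by tags, shEZH2 differed from shCtrl by 2.93 points and shE2F1 by −0.838 points (exact permutation p = 0.667 and p = 1). The background was 4.67 and 5.49 times the genome-wide one in the shCtrl libraries, 3.64 and 3.94 times with shEZH2, and 3.28 and 3.72 times with shE2F1. The background multiples of the shEZH2 and shE2F1 libraries thus all lay below those of shCtrl. Those of shSUZ12 (4.45) and DMSO (4.4) were below them too, and that of GSK126 (4.74) lay between them. The part of the background in the fold differences was not tested.

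The conditions with 1 library have no replicate check and no test. At PVT1, GSK126 stood 60.4 against 46.2 in DMSO, and at MYC 26.9 against 29.5. The shSUZ12 library had the highest value of all at PVT1 by fold, by −log10 p (82) and by tags.

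Local background differed between the segments of the window. Over regions found in all 9 libraries, the median multiple of the genome-wide background was 11.8 at MYC, 6.36 at the site past its 3′ end, 4.36 over PVT1, 2.85 upstream of MYC and 1.54 downstream of PVT1. It was 2.78 over such regions genome-wide. The leading site of PVT1 had a median of 142 tags and that of the downstream segment 63, at much the same percentile of fold.

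**Figure D3:**
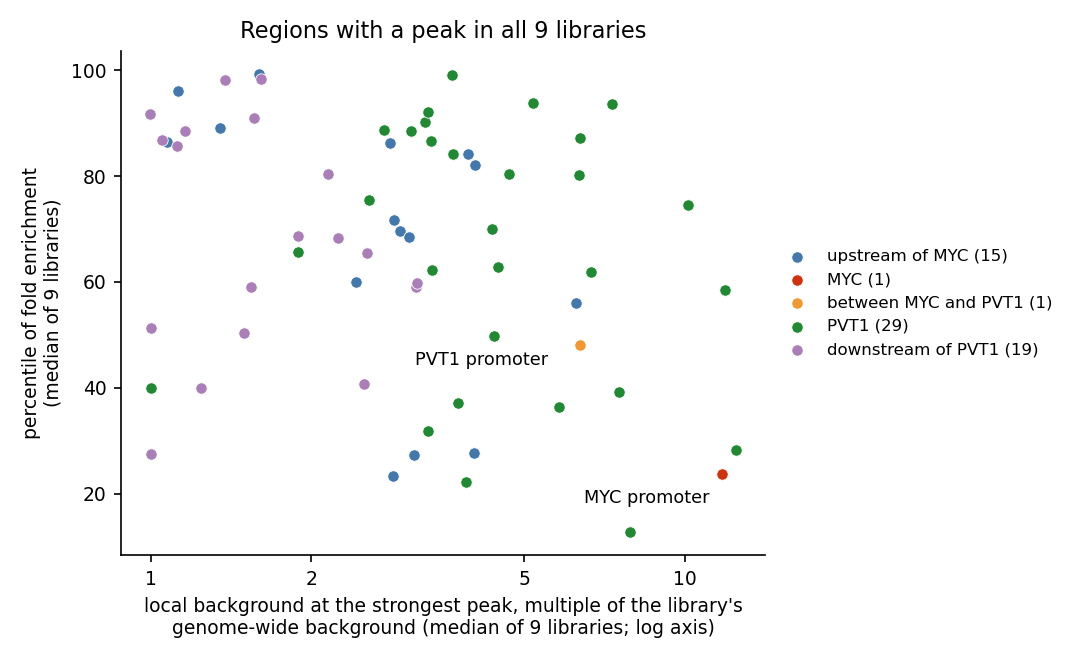
For the 65 regions that all 9 lists share, the local background at the strongest peak as a multiple of the library's genome-wide background (x axis, log scale, median of 9 libraries) against the percentile of fold enrichment (y axis, median of 9 libraries), coloured by segment with the number of regions in brackets. The MYC promoter lies at 11.8 times background and a percentile of 23.6; downstream regions lie at the left.

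The distal sites with the highest median percentiles, named here, stood at 90.9 or more in every library. They were picked for high ranks in these same libraries, and a percentile cannot pass 100, so the choice itself favours a narrow range. At 655 kb before MYC, chr8:127080537-127081242 lay within 1 kb of the start of PRNCR1, over its exon 1 and inside introns of CASC19 and PCAT1, and its percentile was 96.8 to 100 with a median of 99.3. In an intron of PVT1 373 kb past the MYC start, chr8:128108871-128109557 ranged from 97.2 to 99.7. In introns of CCDC26, the lncRNA gene that fills most of the downstream flank, chr8:128787524-128788247 ranged from 93.3 to 99.5 and chr8:128665942-128666951 from 90.9 to 99.7. At the PRNCR1 and PVT1 sites the shEZH2 and shE2F1 means differed from the shCtrl mean by at most 1.53 points. At chr8:128665942-128666951 they differed by −3.71 (shEZH2) and 1.72 points (shE2F1), without overlap of the libraries. At chr8:128787524-128788247 they differed by 0.605 (shEZH2, without overlap) and −0.961 points (shE2F1). No test was run on these sites, and their values are a description.

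Other strong sites inside PVT1 were unequal in how far they varied between libraries. The site at 124 kb past the MYC start, chr8:127859524-127860454, stood at 93.6 and 84.9 in shCtrl, at 98 and 98.1 with shEZH2 and at 76.6 and 95.8 with shE2F1. Both shEZH2 libraries were above both shCtrl libraries, and the shE2F1 libraries straddled them. DMSO (96.6) and GSK126 (93.8) were also above both shCtrl libraries, and shSUZ12 (93.4) lay between them. The site at 214 kb, chr8:127949130-127950456, beside the start of the lncRNA gene LINC02912, ranged from 91.1 to 96.9 and had the most tags of the named sites, with a median of 204. The site at 299 kb, chr8:128035017-128035649, ranged from 79.4 to 94.8, and its lowest values belonged to 1 library each of shEZH2 and shE2F1. The region that holds MIR1207, chr8:128048269-128049770, ranged from 35.7 (shEZH2 replicate 2) to 85 (shCtrl replicate 2), with shCtrl replicate 1 at 60.1. MIR1207 is one of several miRNA genes inside the PVT1 transcript.

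Upstream of MYC, sites in introns of CASC8 led after the PRNCR1 site. The site 428 kb before MYC, chr8:127307394-127308070, stood at 73.5 and 96.5 in shCtrl, between 96 and 97.2 in the shEZH2 and shE2F1 libraries, at 64.3 with shSUZ12, and at 86.2 and 86.4 with DMSO and GSK126. The shCtrl replicates lay farther apart than the shEZH2 and shE2F1 means lay from the shCtrl mean (11.3 and 11.6 points). The neighbouring site 396 kb before MYC, chr8:127340011-127340582, was 82.2 and 87.4 in shCtrl, 99.3 and 89 with shEZH2, and 96 and 93.6 with shE2F1. Both knockdowns thus lay above shCtrl, but so did DMSO, at 89.9. The shSUZ12 and GSK126 libraries stood at 85.9 and 87.2, between the shCtrl values. The region shared by the starts of LRATD2 and PCAT1, which lie on opposite strands and overlap at their 5′ ends, chr8:126556188-126558882, ranged from 35.2 to 61.1. Far downstream, the CCDC26 intron sites chr8:129202189-129202954 and chr8:129459475-129460606 had medians of 91.8 and 91.

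**Figure D4:**
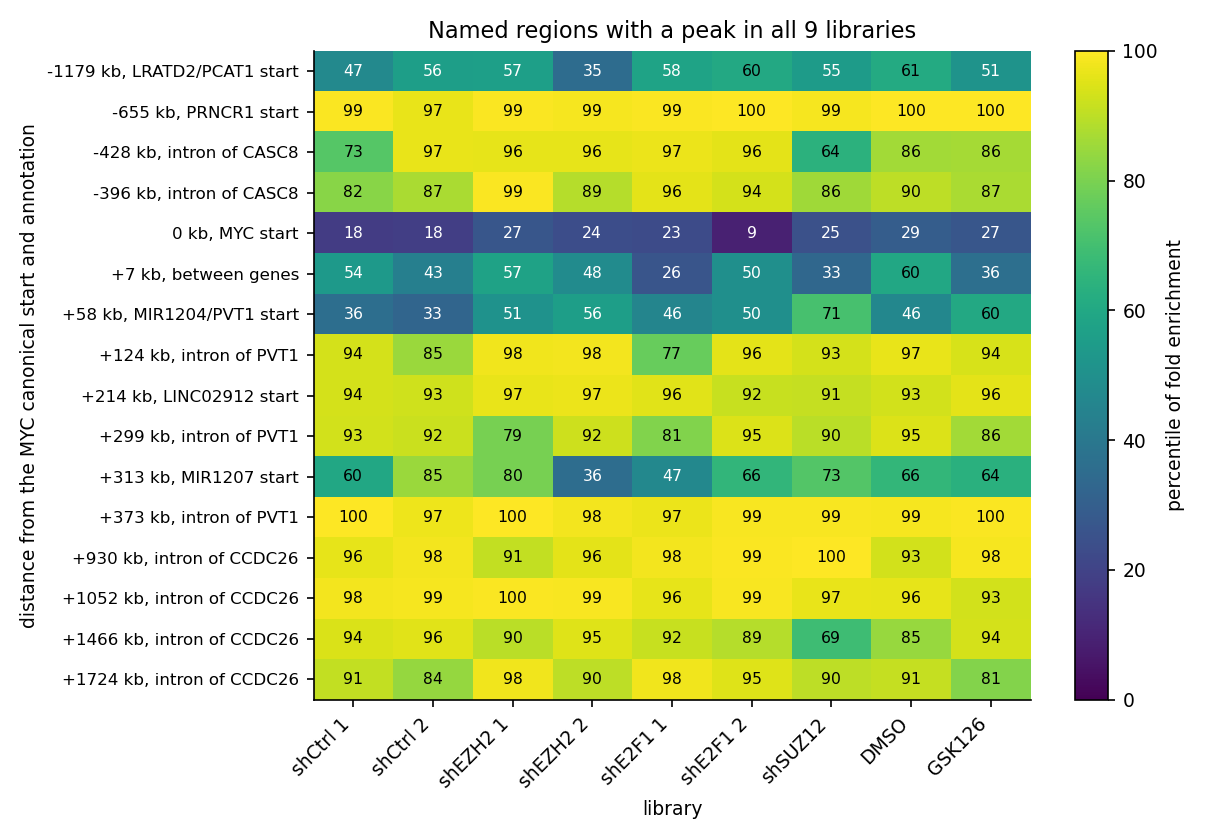
Percentile of fold enrichment of the strongest peak in each library (columns) for the named regions that all 9 lists share (rows, ordered by distance from the MYC canonical start); the number in each cell is the percentile. The PRNCR1 site and the PVT1 intron site at +373 kb stay above 96 in all 9 columns, and the MYC row stays below 30.

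Few regions of the window were gained or lost as peaks. A region was called gained where both knockdown libraries and neither shCtrl library had a peak, and lost in the opposite case. With shEZH2, 3 of 159 regions (1.89%) were gained, against 0.727% of regions genome-wide, and 6 (3.77%) were lost, against 5.87%. With shE2F1, 5 (3.14%) were gained, against 2.56%, and 5 were lost, against 3.36%. Apart from gains with shEZH2, which rest on 3 regions, the shares were close to or below the background. The shEZH2 lists were shorter than the shCtrl lists (72202 and 58626 against 78600 and 81743 peaks). The part of list length in the balance of lost and gained calls was not tested. When every list was reduced to its 58626 top peaks by −log10 p, 8 of 120 regions (6.67%) were gained with shEZH2, against 2.3% genome-wide, and 2 (1.67%) were lost, against 3.33%.

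Among gained regions, chr8:126833858-126834316, in an intron of PCAT1 902 kb before MYC, had the strongest peaks. It stood at 88.3 and 61.1 with shEZH2 and had no peak in the shCtrl, shE2F1 and shSUZ12 libraries. DMSO (35.2) and GSK126 (14.3) also had a peak there. The other regions gained with shEZH2 were chr8:128258006-128258267 (26.8 and 10.7) and chr8:128321320-128321586 (17.3 and 9.35), both downstream of PVT1. The former also had a peak in shE2F1 replicate 2 (40) and in shSUZ12 (11). Of the regions gained with shE2F1, the strongest was chr8:126628613-126628969 in an intron of PCAT1, at 68.6 and 37.5 and with no peak in the other 7 libraries. In the other 4, the weaker shE2F1 library stood at 2.92 to 29.6. One of them, chr8:127670884-127671137, at the start of an unnamed lncRNA gene 65.2 kb before MYC, was also found in shSUZ12, DMSO and GSK126. Another, chr8:128257166-128257520, was also found in shEZH2 replicate 1 (17.3).

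Regions lost with shEZH2 included chr8:129004901-129005555 in an intron of CCDC26, which stood at 68.3 and 72.6 in shCtrl and had a peak in all libraries except the pair of shEZH2. The regions chr8:127507313-127508003, between genes 229 kb before MYC (55.4 and 77.7 in shCtrl), and chr8:128734075-128734830 in CCDC26 (55.9 and 42.2) were likewise present in both shE2F1 libraries. Regions lost with shE2F1 were weaker. The strongest by its weaker shCtrl library was chr8:128251829-128252090, at 35.1 and 38.6, followed by a region over exon 3 of CASC11, chr8:127687961-127688934, at 32.5 and 48.1. The first intron region of MYC described above, chr8:126567007-126567218 in PCAT1 and chr8:128391078-128391357 were lost in both comparisons, which share the shCtrl libraries.

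Regions that kept a peak showed more differences in rank. With shEZH2, 72 regions had a peak in all 4 libraries compared, and 21 of them (29.2%) had both shEZH2 percentiles above both shCtrl percentiles, against 11.6% genome-wide. Both lay below in 12 (16.7%), against 31.6%. More regions were thus higher than lower in the window, and more were lower than higher in the genome. The rest of chromosome 8 resembled the genome, with 13.1% higher and 30.1% lower. Over these regions the median difference was 0.476 points in the window and −3.93 genome-wide. Ranked by −log10 p, 23 of 72 (31.9%) were higher, against 9.15% genome-wide, and 11 (15.3%) were lower, against 37.6%. Ranked by tags, 23 (31.9%) were higher, against 8.39%, and 14 (19.4%) were lower, against 40.8%. With the same number of top peaks in every list, the genome's balance turned, and both leaned towards higher ranks. The window then had 29 of 62 regions higher (46.8%), against 22.7% genome-wide, and 4 lower (6.45%), against 17.8%. At some of the 21 regions higher by fold, DMSO also lay above both shCtrl libraries, and at others it did not. The part of the shCtrl ranks in this balance was not tested. No test was made of the window against the genome, as its regions share libraries and neighbours.

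With shE2F1 the distance between window and genome depended on the ranking. By fold, of 80 regions with a peak in all 4 libraries, 18 (22.5%) were higher, against 16.9%, and 15 (18.8%) were lower, against 22.6%. By −log10 p, 27.5% were higher, against 16.3%, and 16.3% were lower, against 23.1%. By tags, 30% were higher, against 16.5%, and 13.8% were lower, against 23.2%. With lists of equal length, 13 of 66 (19.7%) were higher, against 18.6%, and 8 (12.1%) were lower, against 21.2%. By fold, the median difference was −0.129 points, against −1.23 genome-wide. By segment, the PVT1 gene held 9 higher and 5 lower of 29 regions with shEZH2, and 3 higher and 8 lower of 30 with shE2F1. Downstream of PVT1, 6 of 21 were higher and 4 lower with shEZH2, and 8 of 23 were higher and 3 lower with shE2F1. Genome-wide, 11.6% of regions were higher and 31.6% lower with shEZH2, against 16.9% higher and 22.6% lower with shE2F1. The shares thus differed between the knockdowns outside these segments as well. The difference between the knockdowns by segment was not tested.

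**Figure D5:**
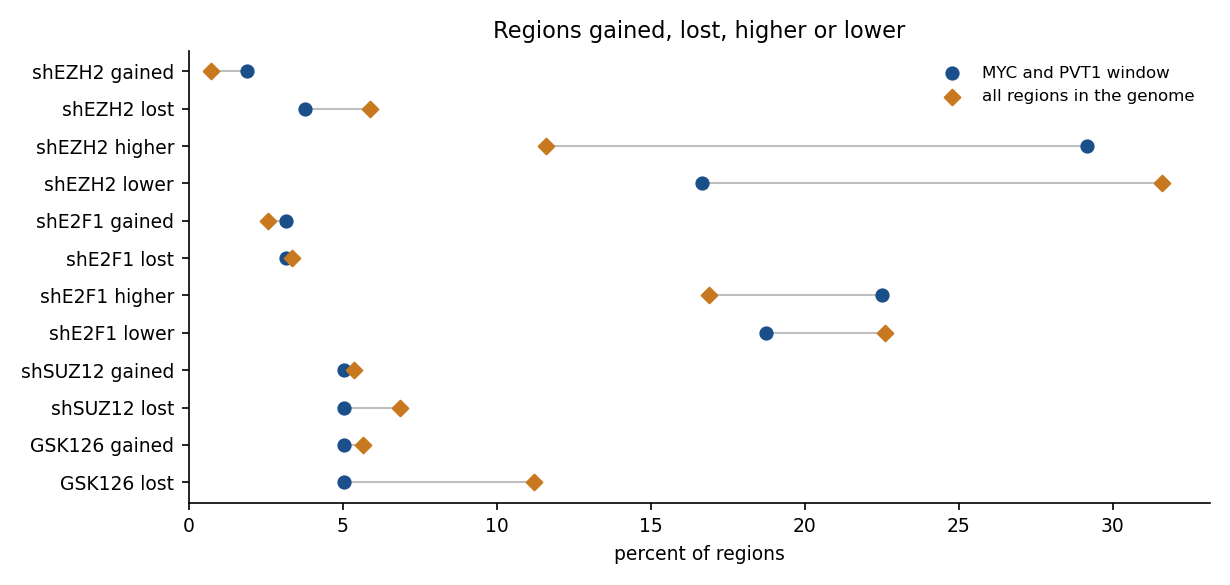
Percent of regions (x axis) called in each comparison (y axis) in the MYC and PVT1 window (circles) and in the whole genome (diamonds); gained and lost refer to presence of a peak, higher and lower to the percentile of fold enrichment, as defined in the text. The widest gaps are those of shEZH2, with 29.2% higher in the window against 11.6% and 16.7% lower against 31.6%.

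Sites with wide differences in both comparisons, which rest on the same shCtrl libraries, are named here after their values were seen. The site over exon 3 of PVT1, chr8:127889900-127890617, stood at 95.8 and 97 in shCtrl, 86.7 and 47.3 with shEZH2, and 71.1 and 69.8 with shE2F1, a difference of −29.4 and −26 points in the means. The shSUZ12, DMSO and GSK126 libraries stood at 88.7, 96.8 and 90, below or between the shCtrl values. The site chr8:128267199-128267958, between genes 531 kb past the MYC start, differed in the other direction, with 45.2 and 58.7 in shCtrl, 86.5 and 84.9 with shEZH2, and 81.4 and 84.9 with shE2F1. DMSO stood at 80.3 there and shSUZ12 at 74.1, whereas GSK126 was at 58.2.

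For the conditions with 1 library, presence alone was counted. The shSUZ12 library had a peak in 8 of 159 regions (5.03%) where neither shCtrl library had one, against 5.35% genome-wide, and lacked one in 8 where both had it, against 6.86%. GSK126 had 8 regions that DMSO lacked, against 5.67%, and lacked 8 that DMSO had, against 11.2%. The DMSO and GSK126 lists shared 93 of the 109 regions found in either (85.3%, against 74.4% genome-wide). Replicates shared 76.3% of regions in shCtrl (72.5% genome-wide), 70.2% in shEZH2 (67.7%) and 70.9% in shE2F1 (65.6%), and the median distance between their percentiles was 8.72, 9.21 and 8.88 points. DMSO shared 80.4% of regions with shCtrl replicate 1 and 79.3% with shCtrl replicate 2 (72.5% and 72.8% genome-wide), so that these pairs, like DMSO and GSK126, had a higher share in the window than the replicate pairs.

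Recurrent sequence words near summits described the distal sites. Words were searched in GRCh38 within 100 bp of each region's strongest summit on both strands, and no word contains another. The AP-1 word TGANTCA was found in 69 of 159 regions (43.4%), against 31.3% of all regions, and in 35 of the 65 found in all 9 libraries (53.8%), against 34.6%. AP-1 factors are dimers of FOS and JUN proteins. The TEAD word GGAATG, bound by the effectors of the Hippo pathway, was found in 39 regions (24.5%, against 17%). The E-box CACGTG, which MYC and MAX bind, was found in 1 region, or 0.629% (against 3.99%), and an E2F word (TTTCCCGC or TTTGGCGC) in none of the 159 (against 0.566%). The CTCF consensus was found in 5 regions (3.14%, against 3.8%). The letters of the PVT1 intron site at 373 kb and of the CCDC26 sites at 930 and 1052 kb held the AP-1 word. Those of the PRNCR1 site and of both promoters held none of the 5. At MYC the strongest summit was that of DMSO, 918 bp before the canonical start. The letters at the canonical start, where the other summit lay, were therefore not searched. The window's regions in all 9 libraries had a median GC content of 48.8% in these letters, against 55.2% of all such regions. A match describes letters only and is no sign of binding.

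Promoters of the wider MYC network were counted in the same way. The list holds 19 genes, among them the partner MAX, the paralogs MYCN and MYCL, the antagonists MXD1, MXI1, MXD3, MXD4, MNT and MGA, the MLX branch, and cofactors such as TRRAP and WDR5. A peak lay within 1 kb of the start in all 9 libraries for 17 of them, with median percentiles of 18.3 to 94.9, all but 1 above the 23.6 of MYC. MYCN had a peak in 7 libraries and MXI1 in 8. With shEZH2, 1 of 17 promoters (5.88%) was higher in both libraries, against 10.6% of protein-coding promoters, and 7 (41.2%) were lower, against 29.7%. With shE2F1, 7 of 18 (38.9%) were higher, against 19.2%, and 3 (16.7%) were lower, against 17%. MAX stood at 69.7 and 77.4 in shCtrl, 75 and 73.8 with shEZH2, and 63.1 and 74.1 with shE2F1, and its groups overlapped. WDR5, a subunit of histone methyltransferase complexes, was higher in both comparisons, with 33.4 and 37.7 in shCtrl, 54 and 44 with shEZH2, and 52.5 and 55.8 with shE2F1. MYCL went opposite ways, at 54.5 and 41.4 in shCtrl, 28.6 and 24.6 with shEZH2, and 74 and 67.5 with shE2F1. MNT was lower in both, at 31.1 and 24.7 in shCtrl, 19.6 and 18.1 with shEZH2, and 16.9 and 21.1 with shE2F1.

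Among the protein-coding promoters most like MYC over the 9 libraries, by the mean absolute difference of percentile among the 12025 others with a peak in all 9, were those of CERK (4.4 points), RPL36 (4.59), ITPR3 (4.61) and JUNB (4.79). CERK encodes ceramide kinase, RPL36 a ribosomal protein, ITPR3 a calcium channel of the endoplasmic reticulum and JUNB an AP-1 subunit. Those most like PVT1 were TRERF1 (4.92), KLF11 (5.12), LMNA (5.98), UNC119B (6.16) and TPGS1 (6.24). KLF11 is a zinc finger transcription factor, and LMNA encodes nuclear lamins A and C. The promoters in both sets were picked for the smallest differences, so their small values follow from the choice.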

How the data were processed

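ATAC-seq was measured in 9 libraries of MDA-MB-231 cells. The authors aligned reads with Bowtie2, keeping up to 4 alignments a read, and shifted them for the Tn5 offset. They called peaks library by library. The ATAC-seq peak caller and its settings are not given in the sources used here. The submitters' processing notes name hg38 and GRCh38, and every peak lay inside the chromosome lengths of that build. The deposited lists give a fold enrichment of the summit over local background (a ratio). They also give the authors' −log10 p and −log10 q, and a whole-number score that was not used here. No list gives read depth, so values were ranked within each list.

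Peaks of all lists were merged at 1 bp of overlap, and a library's value in a region was that of its strongest peak. Promoters were 1 kb on each side of the Ensembl canonical start in GENCODE 44. Summit tags and background were recovered from fold and p as a Poisson tail with 1 added to both, a method tested on simulated data. Groups of 2 libraries were compared by an exact two-sided permutation test. Genome-wide shares stand beside counts in the window, and no set test was run. Regions were named by a rule: both promoters, other starts of named genes found in all 9 lists, the 8 strongest shared distal regions, the 3 strongest of each segment, and up to 5 gained and 5 lost per comparison. The members and lists were chosen with earlier results of these data known. Sequence words were searched in the reference genome, and no bases of the locus are printed. Values were computed in Python 3.11.15 with numpy 2.4.6, pandas 2.3.3 and scipy 1.17.1. Alternatives covered the ranking column, list length, q threshold, promoter width, merging rule and each replicate. Of the 5 promoters most like that of MYC, 1 is not reported here.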

Additional observations from a re-analysis of the deposited data

How the results depend on the processing

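The MYC and PVT1 promoter differences for shEZH2 kept their direction under all 12 alternatives run for each, from 1.99 to 11.6 points at MYC and from 2.93 to 32.5 at PVT1, lowest by recovered tags and highest with lists of equal length. Several of these could not have turned the direction. Both shEZH2 values lay above both shCtrl values, so leaving out 1 library or using the replicate block had to keep the sign. The other promoter widths gave the same values as 1 kb. The exact permutation test of 2 against 2 libraries cannot give a p under 0.05, so its p bears on no alternative. The shE2F1 difference at MYC turned from −2.06 to 0.899 with the same number of top peaks in every list and to 0.0881 among protein-coding promoters. It became 2.94 with a promoter of 2 kb on each side, which reached the region at the CASC11 start. There shE2F1 replicate 2 had a peak at 19.1, which took the place of its MYC promoter peak at 9.15. The difference ranged from −8.97 to 4.85 when 1 library was left out (shE2F1 replicate 1 and replicate 2 being the ones that decide it). At PVT1 the shE2F1 difference became −0.838 when peaks were ranked by recovered tags, and otherwise kept its sign. The rankings among protein-coding promoters and by recovered tags were chosen after seeing the data. Apart from the 2 kb setting, the cause of the reversals was not tested. With the replicate block, the differences stayed at 7.13 and −2.06 (MYC) and 19 and 13.2 (PVT1), with an exact sign-flip p of 0.5 at the least. Deviations of same-numbered libraries correlated at only 0.0319 (shEZH2) and 0.0594 (shE2F1) across regions. No label says whether the replicate numbers pair the libraries, and these correlations cannot settle it. The counts of gained and lost regions were less stable. With −log10 q of 5 or more, 3 of 148 regions (2.03%) were gained with shE2F1, against 2.49% genome-wide. With lists of equal length (120 regions), 8 (6.67%) were gained and 2 (1.67%) lost with shEZH2, against 2.3% and 3.33%, and 3 (2.5%) were gained and 1 (0.833%) lost with shE2F1, against 3.15% and 3.23%. In these lists 4 of 62 regions (6.45%) were lower with shEZH2, against 17.8%, and 8 of 66 (12.1%) with shE2F1, against 21.2%. Leaving out 1 library, shEZH2 gains ran from 4 to 15 (2.56% to 9.43%, most without shEZH2 replicate 2) and losses from 10 to 16 (6.29% to 10.2%), and shE2F1 gains from 6 to 21 (3.85% to 13.5%, most without shE2F1 replicate 1) and losses from 6 to 13 (3.85% to 8.33%), where fewer libraries make the rule easier to meet. Genome-wide the same shares ran from 1.46% to 5.56% and 7.68% to 14.6% (shEZH2), and from 4.06% to 11.5% and 4.66% to 11% (shE2F1). The number of regions shared by all libraries stayed between 56 and 69. The lists give no depth and no region without a peak, so an absent peak may be a weak one.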

Other observations

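Among the 65 regions that all 9 lists share, an intron site of PVT1 406 kb past the MYC start (chr8:128141738-128142625) varied most, from a percentile of 12.9 with shSUZ12 to 91.5 with shE2F1 replicate 2. Its replicates lay far apart, at 76.6 and 16.9 with shEZH2 and at 41.4 and 91.5 with shE2F1. Its median summit height was 16 tags, against 142 at the PVT1 intron site 373 kb past the MYC start, so few tags stand behind each value. Over the 65 regions the distance from the lowest to the highest library had a median of 28.2 points, against 29.6 over the genome's 40606.

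At 634 kb past the MYC start, an intron region of an unnamed lncRNA gene (chr8:128369825-128370365) stood at 85.6 with shSUZ12 and 74.6 with shEZH2 replicate 1, and at 14.3 to 41.4 in the other 7 libraries. It had a median of 14 tags. The start of CCAT2, a lncRNA gene 336 kb before MYC, had a peak within 1 kb in 1 library.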
